A study of Mus musculus with 141 samples.

Results

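Both extremes of *Ucp1* expression were compared in inguinal white adipose tissue (iWAT) of the Hybrid Mouse Diversity Panel, a collection of inbred and recombinant inbred mouse strains. Libraries were selected on their own *Ucp1* level. Within females and within males, RNA-seq libraries were ranked by the TPM of *Ucp1*, and the 25% of libraries at the top (high-*Ucp1*) were set against the 25% at the bottom (low-*Ucp1*). This gave 16 female and 18 male libraries per group, so that 34 high-*Ucp1* and 34 low-*Ucp1* libraries were compared out of 65 female and 73 male libraries ranked, with 67 and 74 in all. The 3 libraries not ranked were those of mice 443 (BXD34/TyJ, female), 886 (BXD69/RwwJ, female) and 1269 (NZW/LacJ, male), in which the summed level of *Uty*, *Kdm5d*, *Ddx3y* and *Eif2s3y*, genes of the Y chromosome, was 794, 372 and 9.36 CPM, against at most 35.7 CPM in the 65 female and at least 164 CPM in the 73 male libraries kept.

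All groups shared their treatment. Mice of both sexes had chow until 8 weeks of age and then the HF/HS diet, rich in fat and sucrose, for 8 weeks, were housed at 25 °C and were fasted for 4 h before the subcutaneous fat was taken, with no cold exposure or drug named in the labels. By the labels, libraries differed in sex and strain alone. The labels give 1 library, from 1 numbered mouse, per sex and strain, so strain and individual mouse cannot be told apart, and p-values measure only the spread between these libraries. The high-*Ucp1* libraries came from 25 strains (16 libraries BXD, 2 AXB or BXA and 16 other inbred strains), and the low-*Ucp1* libraries from 27 strains (17 BXD, 8 AXB or BXA, 3 BXH, 1 CXB and 5 other inbred strains). The families were thus unequally spread over the groups, and with family in the model 1190 genes were higher and 443 lower in place of the counts given for the main comparison.

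*Ucp1* encodes uncoupling protein 1, a carrier in the inner mitochondrial membrane that lets protons re-enter the matrix without ATP synthesis, so that the energy of substrate oxidation leaves as heat. It is the hallmark of brown adipocytes and of beige adipocytes, which appear among white adipocytes of iWAT and carry many mitochondria. Its transcription is known to be driven by noradrenaline through β-adrenergic receptors and cAMP, and by the nuclear receptors PPARα and PPARγ with the coactivator PGC-1α. In bulk tissue, fewer cells of a type and less RNA per cell cannot be told apart.

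*Ucp1* (ENSMUSG00000031710, GRCm38 chr8:83290352-83298452, plus strand) chose the groups, so its levels are a description. In high-*Ucp1* females it was 76.6 TPM at the lowest (SWR/J), 255 TPM at the median and 1276 TPM at the highest (BXD14/TyJ). In low-*Ucp1* females it was 0 TPM at the lowest (BXD27/TyJ), 0.438 TPM at the median and 1.64 TPM at the highest (C57BL/6J). Every high-*Ucp1* female thus stood far above every low-*Ucp1* female, as the ranking requires. High-*Ucp1* males ranged from 30.6 TPM (I/LnJ) over a median of 130 TPM to 1134 TPM (SJL/J), and low-*Ucp1* males from 0 TPM (BXD45/RwwJ) over a median of 0.573 TPM to 2.82 TPM (C57BLKS/J). By its TPM, *Ucp1* ranked 27th among all genes in the library where it stood highest. Its rank had a median of 686 over the high-*Ucp1* libraries and of 15639 over the low-*Ucp1* libraries. The estimated counts behind these values were 936 to 65344 in the high-*Ucp1* and 0 to 81 in the low-*Ucp1* libraries, and at the median depth of the low-*Ucp1* group a count of 3, taken as the floor of detection, was 0.0989 CPM.

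The groups were cut from a continuous range. The first libraries outside the high-*Ucp1* group had 71.1 TPM (A/J, female) and 29.8 TPM (AKR/J, male), next to 76.6 and 30.6 TPM just inside. The first libraries outside the low-*Ucp1* group had 1.84 TPM (BXD48/RwwJ, female) and 2.87 TPM (CXB11/HiAJ, male), next to 1.64 and 2.82 TPM just inside. The next 34 libraries below the high-*Ucp1* group (upper middle group) had 7.68 to 71.1 TPM with a median of 24.2, and the 34 above the low-*Ucp1* group (lower middle group) had 1.84 to 7.04 TPM with a median of 4.20. No gap in the ranking separated a class of high libraries from the rest.

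**Figure D1:**
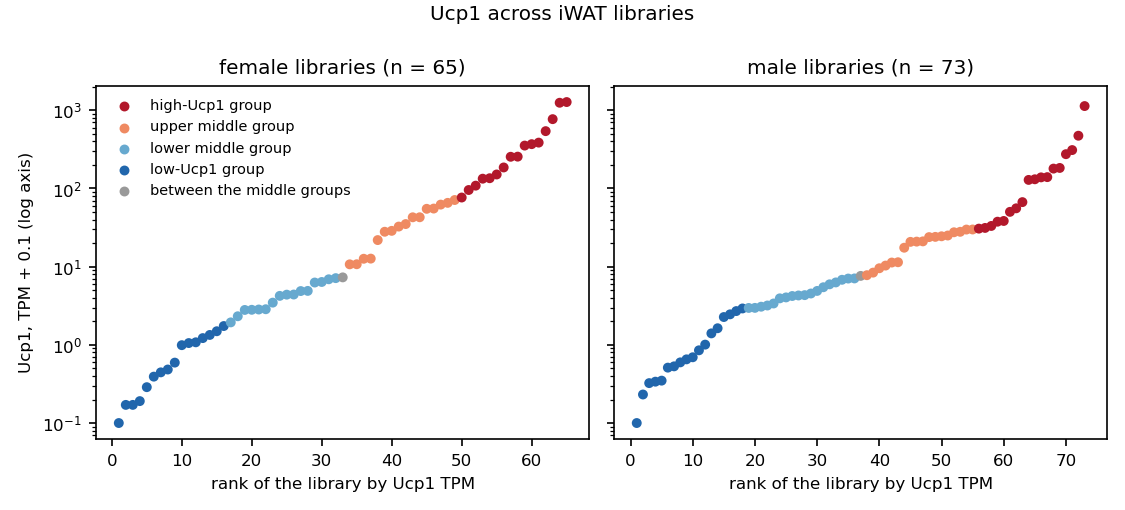
*Ucp1* in each ranked library, as TPM + 0.1 on a log axis, against the rank of the library within the 65 females (left) and 73 males (right), with points coloured by group. The points rise without a break from 0 TPM to 1276 TPM in females and to 1134 TPM in males, and the high-*Ucp1* and low-*Ucp1* groups are the ends of these ranges.

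Depth was alike in both groups. Estimated counts per library ran from 20568201 to 46602800 in the high-*Ucp1* group and from 11747373 to 38174900 in the low-*Ucp1* group, with medians of 30039300 and 30329400. The 13 genes encoded in mitochondrial DNA (mtDNA) that are listed took 6.52% to 25.8% of the counts in high-*Ucp1* libraries (median 11.3%) and 3.99% to 11.4% in low-*Ucp1* libraries (median 7.56%). Mature adipocyte markers (*Adipoq*, *Plin1*, *Fabp4* and 6 others) summed to 7149 to 48922 CPM (median 25304) in the high-*Ucp1* and to 4356 to 41398 CPM (median 25831) in the low-*Ucp1* libraries. The defining markers of the labelled tissue were thus detected in every library, at unequal levels. The lowest sum, 4356 CPM, was that of the AXB12/PgnJ female, which also had the lowest mtDNA share (3.99%). In the low-*Ucp1* group this library had the highest sums of B lymphocyte (1382 CPM), T lymphocyte (1466 CPM) and macrophage markers (5475 CPM).

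Promoter sequences are shown for *Ucp1* and for 3 of the genes whose level followed it most closely, *Acadvl*, *Ppara* and *Hadha*, since these carry the pattern described in the results. Each is the plus or minus strand of GRCm38.p6 as RefSeq places the start of the gene, from 250 bases before it to 50 bases from it on. The motifs AGGTCA and 3 others were searched on both strands. AGGTCA is the half-site of nuclear receptors, TNAAGGTCA the extended site of estrogen-related receptors, which contains the former, TGACGTCA the cAMP response element, and the last is the palindromic site of nuclear respiratory factor 1 (NRF1). TGACGTCA and the NRF1 site read the same on either strand. Capitals mark a match.
*Ucp1* (chr8:83290098-83290397, plus strand): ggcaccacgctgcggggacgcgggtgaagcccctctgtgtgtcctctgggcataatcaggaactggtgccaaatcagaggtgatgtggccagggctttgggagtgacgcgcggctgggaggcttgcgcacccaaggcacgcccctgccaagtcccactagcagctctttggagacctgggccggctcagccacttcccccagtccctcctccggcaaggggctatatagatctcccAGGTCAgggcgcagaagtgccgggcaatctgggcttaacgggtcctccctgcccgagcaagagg
*Acadvl* (chr11:70015379-70015678, minus strand): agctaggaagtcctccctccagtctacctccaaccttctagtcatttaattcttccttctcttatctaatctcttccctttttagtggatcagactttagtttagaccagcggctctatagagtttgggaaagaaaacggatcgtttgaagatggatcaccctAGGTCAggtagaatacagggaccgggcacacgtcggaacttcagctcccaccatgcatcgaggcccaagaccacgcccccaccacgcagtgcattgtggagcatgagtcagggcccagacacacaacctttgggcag
*Ppara* (chr15:85735526-85735825, plus strand): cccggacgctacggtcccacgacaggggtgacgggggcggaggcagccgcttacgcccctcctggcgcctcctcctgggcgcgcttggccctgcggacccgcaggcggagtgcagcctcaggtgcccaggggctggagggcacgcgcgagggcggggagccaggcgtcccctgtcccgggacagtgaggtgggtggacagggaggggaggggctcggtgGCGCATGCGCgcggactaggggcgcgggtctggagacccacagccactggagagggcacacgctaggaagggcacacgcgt
*Hadha* (chr5:30154931-30155230, minus strand): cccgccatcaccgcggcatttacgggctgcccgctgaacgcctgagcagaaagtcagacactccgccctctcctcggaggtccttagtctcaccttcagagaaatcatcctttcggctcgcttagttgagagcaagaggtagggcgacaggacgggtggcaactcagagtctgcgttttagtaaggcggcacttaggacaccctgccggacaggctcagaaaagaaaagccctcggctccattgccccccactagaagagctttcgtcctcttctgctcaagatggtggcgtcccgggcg
The half-site began 14 bases before the start in *Ucp1* and 87 bases before it in *Acadvl*, and the NRF1 site 31 bases before it in *Ppara*. The *Hadha* window held none of the 4 motifs and shared 228 of its bases with that of *Hadhb*, which lies head to head with it. AGGTCA was found in 16.3% of all 32851 promoters of this length, TNAAGGTCA in 1.28%, TGACGTCA in 1.79% and the NRF1 site in 0.971%. A match is a description of these letters and no evidence of binding.

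The main comparison asked which other genes differ between high-*Ucp1* and low-*Ucp1* iWAT when sex is held constant. In the 34 against 34 libraries, 1366 of 17618 genes were higher in the high-*Ucp1* group at an adjusted p under 0.05 (7.75% of those tested), and 749 were lower (4.25%). The median log2FC of all genes was -0.0028. Of the genes called higher whose mean was 1 CPM or more, 148 were over 2-fold higher. No gene other than *Ucp1* had groups without overlap. The split between higher and lower depended on scaling: scaled by library totals instead of TMM, the data gave 919 higher and 1843 lower genes, and with limma on log2(TPM + 1) 397 were higher and 8502 lower, with the median of all genes moved to -0.21. Directions below are from TMM-scaled counts, and lists are also given relative to that shift where it matters. With strain as a random block, since 9 strains gave a pair of high-*Ucp1* libraries and 7 a pair of low-*Ucp1* libraries, 885 were higher and 488 lower.

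Thermogenic effector genes, the enzymes, carriers and signals through which brown and beige adipocytes burn fuel, had the largest median difference of the lists that were higher. Of 24 in the list besides *Ucp1*, 22 were tested and 21 were higher, with a median log2FC of 1.76, against 7.75% of all genes called higher. With limma on log2(TPM + 1) their median was 1.12, or 1.33 above that of all genes. The only tested member not called was *Fgf21*, an endocrine signal also made by brown fat, with a log2FC of 0.14 ± 0.27 (SE) and an adjusted p of 0.82.

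*Cidea*, a lipid droplet protein of brown adipocytes, was 22.5 CPM at the lowest, 87.7 CPM at the median and 662 CPM at the highest in high-*Ucp1* libraries. In low-*Ucp1* libraries it ran from 1.91 over 10.3 to 37.3 CPM. All 34 high-*Ucp1* libraries were above the median of the low group and 28 were above its highest library, with a log2FC of 3.55 ± 0.30 (adjusted p = 4.1e-14).

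*Cpt1b*, the muscle-type carnitine palmitoyltransferase that admits long-chain fatty acids to mitochondria, had 13.03 to 397 CPM (median 55.2) against 5.02 to 24.9 CPM (median 8.61). It was the gene with the least overlap among those named, with 30 of 34 high-*Ucp1* libraries above the highest low-*Ucp1* library and a log2FC of 3.10 ± 0.25 (adjusted p = 7.8e-15). *Fabp3*, a fatty acid binding protein of oxidative tissues, had 0.215 to 371 CPM (median 18.3) against 0 to 10.5 CPM (median 0.216), with a log2FC of 6.57 ± 0.65. The fold of *Fabp3* was the largest among called genes whose mean was 1 CPM or more, while its groups overlapped more than those of *Cpt1b*. *Elovl3*, an elongase of very long chain fatty acids induced in cold brown fat, had 0.152 to 277 CPM (median 11.8) against 0.0341 to 3.43 CPM (median 0.305), with a log2FC of 5.78 ± 0.58.

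Mitochondrial and lipid droplet effectors moved the same way. *Cox7a1* and *Cox8b*, the muscle and brown fat isoforms of cytochrome c oxidase subunits, had a log2FC of 3.09 ± 0.31 and 2.32 ± 0.25. *Plin5*, which tethers lipid droplets to mitochondria, rose from a median of 8.58 CPM to 29.9 CPM (log2FC 1.79 ± 0.20). *Acot11*, a thioesterase of fatty acyl-CoA, had medians of 13.2 against 3.91 CPM and a log2FC of 3.30 ± 0.36, and *Pank1*, which starts coenzyme A synthesis, medians of 22.2 against 8.04 CPM and a log2FC of 1.98 ± 0.24. For *Otop1*, a proton channel, 25 of 34 high-*Ucp1* libraries were above the highest low-*Ucp1* library (log2FC 2.02 ± 0.21).

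Regulatory effectors also rose. *Dio2*, the deiodinase that makes active thyroid hormone in the cell, had medians of 4.15 against 1.49 CPM (log2FC 1.73 ± 0.31), and *Pdk4*, which holds back glucose oxidation, medians of 369 against 126.4 CPM (log2FC 1.62 ± 0.24). *Kcnk3*, a potassium channel of brown adipocytes, rose by a log2FC of 0.96 ± 0.15. *Gk*, glycerol kinase, had a log2FC of 1.19 ± 0.21, and *Letmd1*, a mitochondrial protein of brown fat, of 1.12 ± 0.16. The secreted factors *S100b* and *Nrg4*, known for nerve growth in adipose tissue, had 1.04 ± 0.24 and 0.47 ± 0.14. The fatty acid transporter *Slc27a2*, also a liver gene, had 2.01 ± 0.57, and 3.91 without the 5 low-*Ucp1* libraries with over 300 CPM of liver protein genes. The smallest called member was the thioesterase *Acot2*, at 0.39 ± 0.096.

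Likeness to *Ucp1* over the whole range was measured by the Spearman correlation of log2 CPM over all ranked libraries, each centred on its sex. It was highest for *Cidea* (0.83) and *Cpt1b* (0.83), followed by *Fabp3* (0.79), *Hadha* (0.74), *Acadvl* (0.74), *Cox7a1* (0.74), *Ppara* (0.72) and *Elovl3* (0.72). These points share libraries and depth, and the values are a description. The medians of *Cidea* in the high, upper middle, lower middle and low groups were 87.7, 33.05, 19.3 and 10.3 CPM, and those of *Cpt1b* 55.2, 20.1, 14.8 and 8.61 CPM. The medians of each of the 8 genes fell from group to group.

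**Figure D2:**
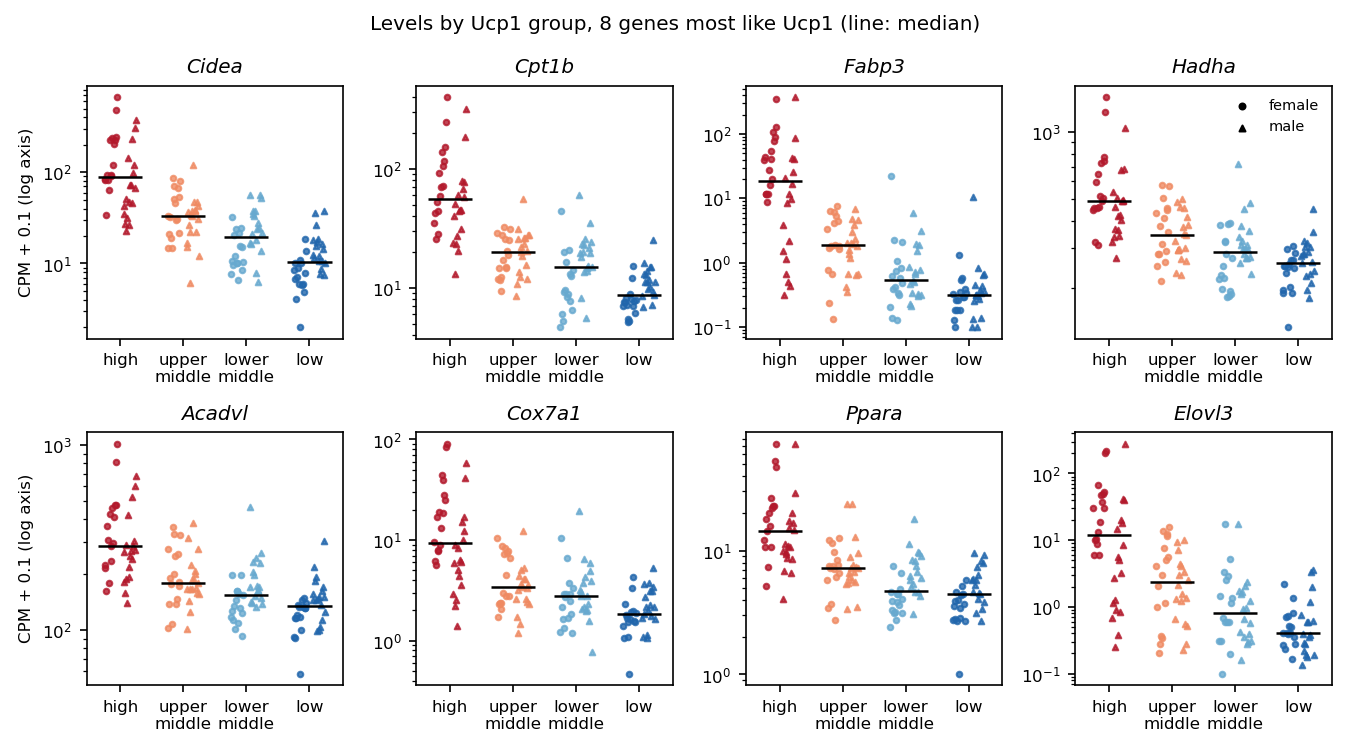
CPM + 0.1 on a log axis for the 8 genes with the highest correlation with *Ucp1*, in the 4 groups of libraries by *Ucp1*, with circles for female and triangles for male libraries and a line at the median of each group. The medians step down from left to right in every panel, from 87.7 to 10.3 CPM in *Cidea*, while single libraries of neighbouring groups overlap.

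Regulators of the thermogenic program changed less than the effectors. Of 21 transcription factors and cofactors tested, 8 were higher and 1 was lower, against 7.75% and 4.25% of all genes, with a median log2FC of 0.15. With limma on log2(TPM + 1) 4 were higher and 8 lower, with a median of -0.19, or 0.027 above that of all genes. *Ppara*, the fatty acid receptor that drives oxidation genes, stood out. It had 3.996 to 72.3 CPM (median 14.4) against 0.917 to 9.40 CPM (median 4.34), 26 of 34 high-*Ucp1* libraries were above the highest low-*Ucp1* library, and its log2FC was 2.09 ± 0.22 (adjusted p = 1.4e-10). The estrogen-related receptors *Esrrg* (0.90 ± 0.12) and *Esrra* (0.51 ± 0.085) and the coactivators *Ppargc1b* (0.90 ± 0.15) and *Ppargc1a* (0.71 ± 0.14), which drive mitochondrial genes, were higher, as was *Cebpb* (0.50 ± 0.12). *Tfam*, which packages mtDNA, and *Gabpa*, a factor of respiratory genes, were called higher at 0.18 ± 0.057 and 0.15 ± 0.041, and both turned below 0 with limma on log2(TPM + 1), at -0.19 and -0.11. *Tle3*, a corepressor that favours white over brown gene expression, was lower, with medians of 112.1 against 131.9 CPM (log2FC -0.29 ± 0.054).

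Other regulators of the list were not called. *Prdm16*, the cofactor of brown and beige fate, had 5.05 to 44.2 CPM (median 19.8) against 3.15 to 29.6 CPM (median 17.3), a log2FC of 0.35 ± 0.14 and an adjusted p of 0.082, and -0.044 with limma on log2(TPM + 1). *Ebf2*, a brown preadipocyte factor, had 0.31 ± 0.13 (adjusted p = 0.12), and *Pparg*, the master factor of all adipocytes, -0.070 ± 0.13 (adjusted p = 0.81).

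Markers that part classical brown from beige adipocytes did not move together. Of 7 genes higher in classical brown fat, *Mpzl2* (log2FC 1.11 ± 0.21) and *Oplah* (0.74 ± 0.13) were higher and *Lhx8* (-0.81 ± 0.17) and *Hspb7* (-1.05 ± 0.34) lower. *Hspb7* had -0.54 and an adjusted p of 0.29 without the 5 libraries high in liver protein genes. *Zic1*, the most used marker of classical brown fat, was at 0.770 to 3.86 CPM against 0.688 to 2.91 CPM, with a log2FC of -0.025 ± 0.14 (adjusted p = 0.95) whose sign changed with the setting. Of 7 beige-selective genes, *Cited1* was higher (1.27 ± 0.35), and the other 6, *Tmem26*, *Tbx1*, *Tnfrsf9*, *Shox2*, *Klhl13* and *Mtus1*, had log2FC from -0.19 to 0.56 with none called.

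Genes of adrenergic signalling, the input that switches thermogenesis on, changed by small amounts. Of 10 tested, 3 were higher, against 7.75% of all genes: the receptor *Adrb1* (log2FC 0.60 ± 0.13), the kinase subunit *Prkaca* (0.33 ± 0.10) and the adenylyl cyclase *Adcy3* (0.32 ± 0.093). The main receptor of adipocytes, *Adrb3*, had 46.9 to 746 CPM (median 169) against 35.4 to 572 CPM (median 125), a log2FC of 0.47 ± 0.22 and an adjusted p of 0.18. With strain as a random block 1 of the 10 was higher, and with limma on log2(TPM + 1) 0 were higher and 2 lower. On the latter scale 397 of all 17618 genes were higher and 8502 lower. *Th* and *Dbh*, which make noradrenaline, were too low to be tested.

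Heat-producing cycles other than proton leak by UCP1 were covered by 21 tested genes, of which 7 were higher and 2 lower, against 7.75% and 4.25% of all genes. Higher were *Gk*, the mitochondrial creatine kinase *Ckmt1* (log2FC 1.19 ± 0.35), *Ucp3* (0.98 ± 0.15), the pyruvate carrier subunits *Mpc1* (0.76 ± 0.14) and *Mpc2* (0.71 ± 0.14), the calcium channel *Ryr2* (0.71 ± 0.22) and the ADP/ATP carrier *Slc25a5* (0.27 ± 0.055), whose difference was -0.0031 with limma on log2(TPM + 1). The 2 lower genes, *Atp2a1* (-4.99 ± 0.95) and *Ryr1* (-1.86 ± 0.34), are the calcium pump and calcium channel of skeletal muscle. Their highest values, 732 and 141.3 CPM, came from low-*Ucp1* libraries, and without the BXA7/PgnJ male library they were -3.37 and -1.05.

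**Figure D3:**
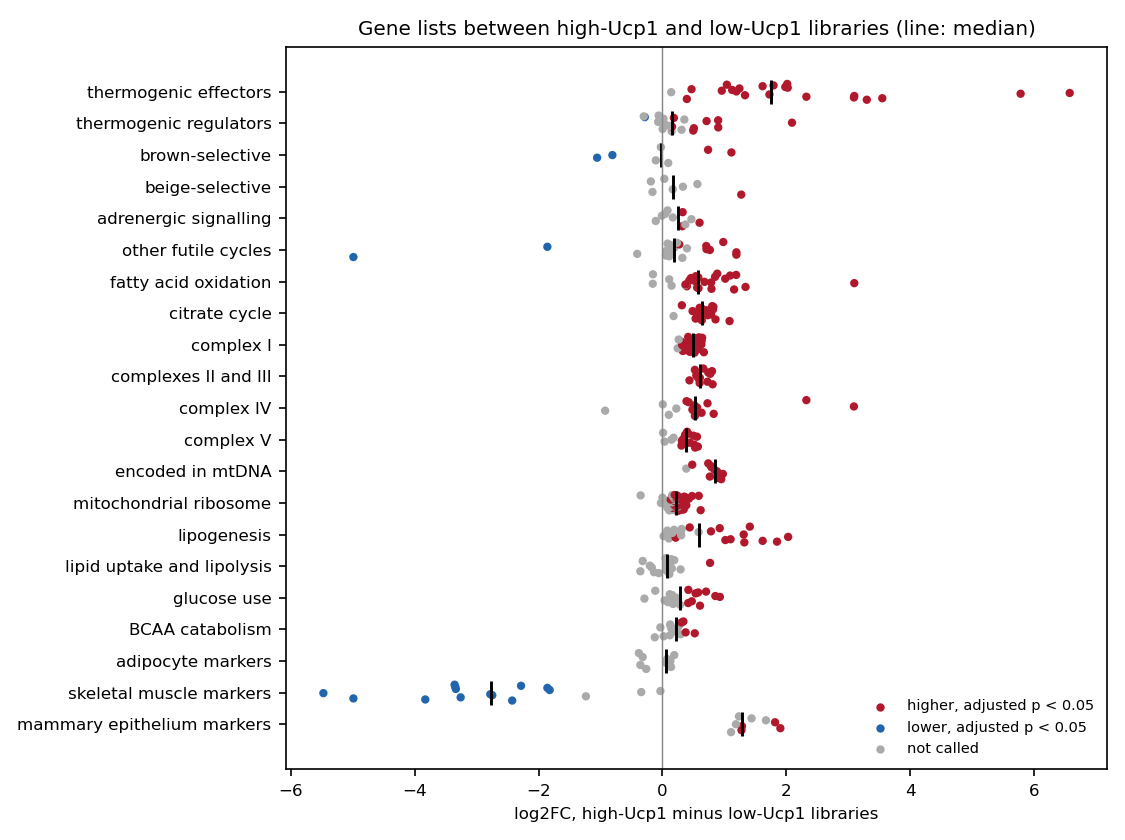
The log2FC of high-*Ucp1* minus low-*Ucp1* libraries for the tested members of 21 gene lists, with red points called higher, blue points called lower, grey points not called and a line at the median of each list. Thermogenic effectors reach furthest to the right with a median of 1.76, the respiratory and oxidation lists sit between 0.38 and 0.84, adipocyte markers centre on 0.060 and skeletal muscle markers on -2.76.

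Genes of mitochondrial fuel oxidation were higher across nearly all their members. In fatty acid oxidation 21 of 26 tested genes were higher, with a median log2FC of 0.57, and in the citrate cycle 19 of 20, with a median of 0.63, where 7.75% of all genes were called higher. *Hadha*, the α subunit of the trifunctional protein that carries out the last steps of β-oxidation, had 273 to 1431 CPM (median 488) against 132.97 to 452 CPM (median 257), with 22 of 34 high-*Ucp1* libraries above the highest low-*Ucp1* library (log2FC 1.09 ± 0.12). Its partner *Hadhb*, with which it shares a promoter window, had 1.19 ± 0.14, and *Acadvl*, the very long chain acyl-CoA dehydrogenase, 1.34 ± 0.15. In the citrate cycle *Idh3b*, a subunit of isocitrate dehydrogenase, was among the members with the lowest p (197 against 130.9 CPM at the median, log2FC 0.78 ± 0.10). The liver-type *Cpt1a*, beside its muscle-type paralog at 3.10, had a log2FC of -0.16 ± 0.073 (adjusted p = 0.17).

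The respiratory chain and ATP synthase followed. Of 83 nuclear genes tested, 73 were higher, against 7.75% of all genes: 35 of 37 in complex I (median log2FC 0.49), all 13 in complexes II and III (0.60), 12 of 16 in complex IV (0.52) and 13 of 17 in complex V (0.38). *Ndufs1* of complex I had medians of 191 against 129 CPM (0.60 ± 0.083), *Uqcrc1* of complex III 90.96 against 57.2 CPM (0.77 ± 0.10) and *Atp5b* of ATP synthase 1413 against 951 CPM (0.57 ± 0.096). Within the 83 genes log2FC ran from -0.92 for *Cox6a2* (not called, adjusted p = 0.099) to 2.32 for *Cox8b* and 3.09 for *Cox7a1*, both also counted among the effectors, with *Cox5a* next at 0.83. Of the 13 genes encoded in mtDNA, 12 were higher (median 0.84), among them *mt-Co3* (0.97 ± 0.13) and *mt-Nd1*, for which 20 of 34 high-*Ucp1* libraries were above the highest low-*Ucp1* library (0.88 ± 0.13). With limma on log2(TPM + 1) the medians of complex I, IV and V and the mtDNA genes were 0.16, 0.20, 0.078 and 0.63, above that of all genes by 0.38, 0.42, 0.29 and 0.85.

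Mitochondrial ribosomal proteins had a smaller median than the respiratory and oxidation lists. Of 78 tested, 49 were higher, against 7.75% of all genes, with a median log2FC of 0.22, led by *Mrps35* (0.48 ± 0.070) and *Mrps2*. With limma on log2(TPM + 1) 5 were higher and 12 lower, with a median of -0.057, or 0.16 above that of all genes.

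Of 21 genes of lipid synthesis 12 were higher, against 7.75% of all genes, with a median log2FC of 0.58 and 0 lower. *Acacb*, the acetyl-CoA carboxylase isoform at the mitochondrial surface, had 65.3 to 1360 CPM (median 227) against 23.6 to 261 CPM (median 67.3), a log2FC of 1.85 ± 0.24, and *Agpat2*, an enzyme of glycerolipid synthesis, medians of 409 against 210 CPM (1.10 ± 0.17). In glucose use 9 of 19 genes were higher, with *Pfkl* (0.85 ± 0.12) and *Pkm* (0.70 ± 0.11), the phosphofructokinase and pyruvate kinase of glycolysis, in front. With limma on log2(TPM + 1) 7 of these 19 were higher and 3 lower. In branched-chain amino acid catabolism 4 of 17 were higher, including *Bckdha* (0.52), a subunit of the rate-setting dehydrogenase, and its mitochondrial carrier *Slc25a44* (0.34), against 7.75% of all genes. With strain as a random block 2 were higher, and with limma on log2(TPM + 1) 1 was higher and 3 lower. In lipid uptake and lipolysis only *Plin2*, a lipid droplet coat protein, was called (0.77 ± 0.13), and this 1 of 18 is near the 7.75% of all genes. With limma on log2(TPM + 1) 6 members were lower. On that scale 397 of all 17618 genes were higher and 8502 lower.

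Genes that track the growth of white fat were lower. Of 4 tested, *Sfrp5*, *Bmp3* and *Lep* were called lower, against 4.25% of all genes. *Mest* was not called (log2FC -0.72 ± 0.39, adjusted p = 0.26). In females alone 0 of the 4 were called, and in males alone 1. *Lep*, leptin, had 17.6 to 4243 CPM (median 925) against 126.7 to 4871 CPM (median 1878), a log2FC of -1.01 ± 0.35 and an adjusted p of 0.045. *Sfrp5*, a Wnt antagonist of expanding fat, had medians of 41.95 against 170 CPM (-1.27 ± 0.39), and *Bmp3* 77.2 against 127.8 CPM (-0.89 ± 0.20). Of the 4, 1 was called without the libraries high in liver protein genes and 2 without the 3 females high in milk protein genes. In the glucocorticoid list, *Hif3a* (-0.78 ± 0.24), *Tsc22d3* (-0.63 ± 0.15) and *Zbtb16* (-0.49 ± 0.16) were lower and *Hsd11b1*, which makes active corticosterone in the cell, higher (0.68 ± 0.15). These were 3 and 1 of 9 tested, against 4.25% and 7.75% of all genes called lower and higher.

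Adipocyte markers were not called. By edgeR's quasi-likelihood test 0 of 9 passed in either direction, as with DESeq2 and limma-voom, with 2 at an unadjusted p under 0.05, both lower, and a median log2FC of 0.060. With library totals 3 were lower, where 1843 of all 17618 genes were. With limma on log2(TPM + 1) 4 were lower, where 8502 of all 17618 genes were. By the same edgeR test 0 genes were called among 7 B lymphocyte, 9 T lymphocyte, 13 macrophage, 5 mast cell and 8 proliferation markers, with 0 at an unadjusted p under 0.05 in each of these lists and 0 with DESeq2 or limma-voom. For macrophage markers the sexes went opposite ways: in females alone 7 of 13 were lower (median log2FC -0.84), in males alone all 13 were above 0 with 0 called (median 0.28). Single libraries stood out on both sides. Summed macrophage markers were 5475 CPM in the low-*Ucp1* AXB12/PgnJ female (median of low-*Ucp1* females 1203). They were 4614 CPM in the high-*Ucp1* KK/HlJ male (median of high-*Ucp1* males 1322). The part of these libraries in the contrast of the sexes was not tested. The difference between the sexes was above 0 in all 13, at an unadjusted p under 0.05 in 12, with 0 called by edgeR (smallest adjusted p = 0.15), DESeq2 or limma-voom. Of all 17618 genes 942 were above 0 at that unadjusted p by edgeR. With limma on log2(TPM + 1), where the median of all genes was -0.21, 7 macrophage and 1 mast cell marker were lower. Summed B lymphocyte markers spanned 5.49 to 1359 CPM (median 106.7) against 6.19 to 1382 CPM (median 323), so both groups held libraries with little and with much lymphocyte RNA. Of 10 endothelial, 11 progenitor, 9 Schwann cell and 3 mesothelial markers 0 were called by edgeR, with 1, 1, 4 and 1 at an unadjusted p under 0.05, all lower, and limma-voom called 2 Schwann cell markers lower. With library totals 1 endothelial, 1 progenitor and 3 Schwann cell markers were lower, and with limma on log2(TPM + 1) 9, 6 and 7. Among 7 mural markers *Cspg4* was higher (0.61).

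Genes of other tissues differed between the high-*Ucp1* and low-*Ucp1* groups. High sums were not confined to these groups, since libraries of the middle groups had them too. Skeletal muscle genes reached 30381 CPM in the lower middle BXD79/RwwJ female. Liver protein genes reached 3143 CPM in the upper middle MA/MyJ male, and milk protein genes 4611 CPM in the upper middle KK/HlJ female. Of 16 skeletal muscle markers tested 13 were lower, against 4.25% of all genes, with a median log2FC of -2.76, and 3 with strain as a random block (median -0.83). The median was -1.06 with DESeq2 and -0.87 with limma-voom. Their summed level was 14.8 to 179 CPM (median 58.1) in high-*Ucp1* and 36.2 to 4353 CPM (median 79.9) in low-*Ucp1* libraries. The highest in these groups was the BXA7/PgnJ male library, and without it 13 were called lower with a median of -1.64. The part of muscle tissue in the other results was not tested beyond a fit with the muscle score as a covariate, where 1142 genes were higher and 508 lower.

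Mammary epithelium markers were higher in 4 of 9 (*Csn3*, *Krt18*, *Epcam* and *Cldn7*, log2FC from 1.28 to 1.90, list median 1.28), against 7.75% of all genes. DESeq2 called 8, limma-voom and the random strain block called 1 (medians 0.15 on both), and all 9 had an unadjusted p under 0.05. In females alone 1 of 9 was called (median 0.21), and in males alone 0 of the 2 tested. The log2FC of males minus that of females was above 0 in all 9, in 7 at an unadjusted p under 0.05, with 0 called by edgeR. Of all 17618 genes 942 were above 0 at that unadjusted p. The summed markers were 216 to 2022 CPM (median 469) against 132.2 to 1038 CPM (median 526) in females. In males they were 0.479 to 317 CPM (PL/J, median 2.29) against 0.295 to 12.6 CPM (median 2.33), so that within each sex the low-*Ucp1* median was the higher one. The 5 milk protein genes *Csn1s1*, *Csn2*, *Csn3*, *Lalba* and *Wap* exceeded 1000 CPM in 3 high-*Ucp1* females (SWR/J, SJL/J and PL/J) and reached 320 CPM in low-*Ucp1* females. Without these 3 libraries *Csn2* fell from a log2FC of 5.82 to 1.98 (adjusted p = 0.12). Secreted liver proteins (*Alb*, *Ttr* and 5 others) exceeded 300 CPM in 5 low-*Ucp1* libraries, of BXA2/PgnJ, BXA8/PgnJ (both sexes), NZW/LacJ and BXD36/TyJ, and in no high-*Ucp1* library, and without these *Ttr* went from -2.83 to -0.35 (adjusted p = 0.80). The count of thermogenic effectors called higher was 21 without each of these sets of libraries, and that of citrate cycle genes 19.

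**Figure D4:**
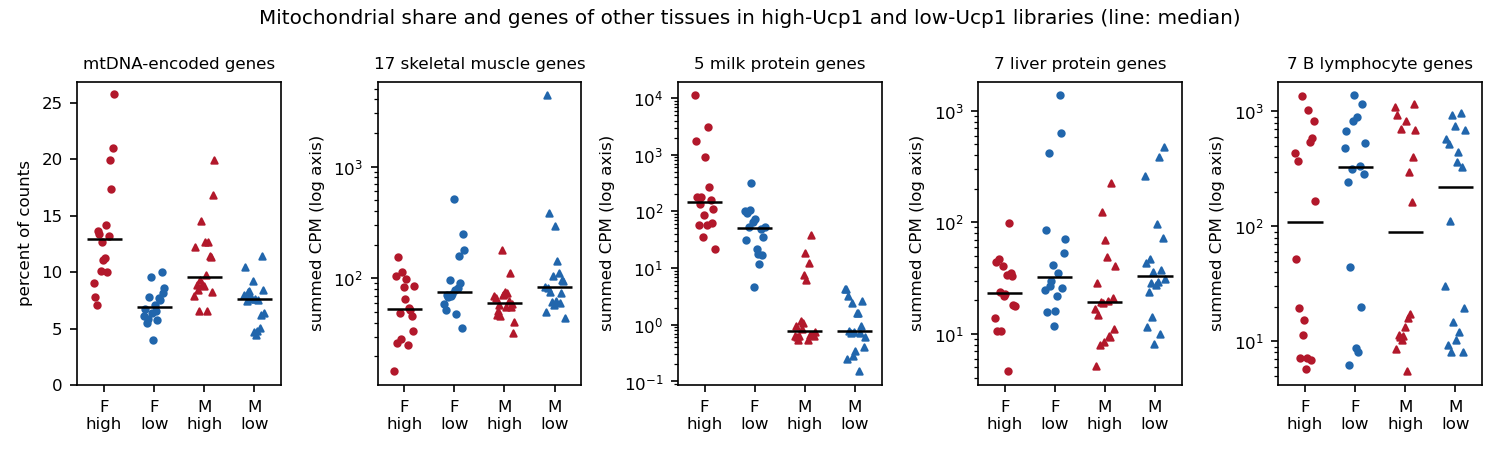
The percent of counts from mtDNA-encoded genes and the summed CPM (log axis) of 17 skeletal muscle, 5 milk protein, 7 liver protein and 7 B lymphocyte genes in female (F) and male (M) libraries of the high-*Ucp1* (red) and low-*Ucp1* (blue) groups, with a line at the median. The mitochondrial medians are 11.3% over high-*Ucp1* and 7.56% over low-*Ucp1* libraries, 1 low-*Ucp1* male reaches 4353 CPM of muscle genes, and milk protein genes above 1000 CPM appear in 3 high-*Ucp1* females.

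Among called genes whose mean was 1 CPM or more, the 12 with the largest log2FC were *Fabp3*, *Csn2*, *Elovl3*, *Gm13340*, *Csn1s1*, *Cidea*, *Gm6123*, *Gm13680*, *Acot11*, *Lalba*, *Adprhl1* and *Cpt1b*. Thus 5 of them are thermogenic effectors, 3 are milk proteins and 3 are pseudogenes, whose reads kallisto may split with their parent genes and whose values are uncertain. The 12 with the smallest were *Myh4*, *Atp2a1*, *Cyp1a1*, *Actn3*, *Gm4366*, *Tnnt3*, *Tnnc2*, *Pvalb*, *Ckm*, *Ttr*, *Igkv3-4* and *Myh2*, of which 8 are skeletal muscle genes. *Cyp1a1*, the cytochrome induced by the aryl hydrocarbon receptor, had medians of 0.146 against 0.185 CPM and a log2FC of -4.01 ± 0.75, so the difference came from single libraries of up to 61.2 CPM in the low-*Ucp1* group.

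The same question was asked of each sex and of the difference between them. In females alone 866 of 16661 genes were higher and 438 lower, and in males alone 331 of 16181 were called, 225 of them higher. The medians of the lists were larger in females: 2.27 against 1.49 for thermogenic effectors, 0.89 against 0.41 for the citrate cycle, 0.72 against 0.27 for complex I and 1.15 against 0.61 for mtDNA genes. *Cidea* had a log2FC of 4.54 in females (medians 107.3 and 7.41 CPM) and 2.66 in males (59.1 and 13.4 CPM). The *Ucp1* levels that set the groups differed in the same order, with medians of 255 and 130 TPM in the high groups.

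The test of the difference itself called 4 of 17618 genes (0.0227%). At an unadjusted p under 0.05 by this test, 537 of the 17618 had a smaller log2FC in males and 942 a larger one. Of 37 complex I genes all 37 had a smaller log2FC in males, 29 at an unadjusted p under 0.05, but 0 were called by edgeR (smallest adjusted p = 0.23), DESeq2 or limma-voom. Of 22 thermogenic effectors 21 had a smaller log2FC in males, 11 at an unadjusted p under 0.05, with 0 called by edgeR (smallest adjusted p = 0.10) or limma-voom and 2 by DESeq2. The larger medians in females were thus not called gene by gene.

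The libraries between the extremes were compared in the same way, upper against lower middle group, a comparison added after the data were seen. *Itih2* was called higher (log2FC 2.18) and *Gm8399* lower (-3.23), each 0.00569% of 17577 genes tested, with 358 and 261 genes at an unadjusted p under 0.05. In the high against low comparison *Itih2* had -0.38 and *Gm8399* 2.74, the other direction in both. Directions in several lists were still shared with the extremes: all 26 fatty acid oxidation genes (median log2FC 0.11), all 20 citrate cycle genes (0.14) and 20 of 22 effectors (0.29) were above 0. Of the skeletal muscle markers 0 of 16 were above 0 (median -3.28), and of the mammary markers 9 of 9 (0.27), with 0 called. The lower middle BXD79/RwwJ female had 30381 CPM of muscle genes, and its part in this was not tested. Schwann cell markers turned, with 9 of 9 above 0 (0.22) against a median of -0.26 between the extremes. *Cidea* had 0.86 and *Cpt1b* 0.32, and the medians of *Ucp1* differed by less than between the extremes, at 24.2 against 4.20 TPM.

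Since *Ucp1* chose the libraries, its level was tested only across the sexes, where ranking within a sex does not set the outcome: a strain was chosen by the library of one sex and *Ucp1* read in its mate of the other. Of these mates, 17 of 29 females and 17 of 27 males were themselves in the high or the low group of their own sex. Among 17 female libraries of strains whose male was in the high group, *Ucp1* was 0.188 TPM at the lowest (AXB19b/PgnJ), 76.6 TPM at the median and 1276 TPM at the highest. Among 12 female libraries of strains whose male was in the low group it ran from 0.0706 over 1.38 to 42.7 TPM. The means of log2(TPM + 1) were 5.89 ± 2.86 (SD, n = 17) and 1.74 ± 1.74 (SD, n = 12), a difference of 4.15 (two-sided permutation test, p = 0.00026), and 16 of 17 were above the median of the other group. In the reverse direction, 14 male libraries of strains with a high-*Ucp1* female had 3.83 to 1134 TPM (median 92.2), and 13 males of strains with a low-*Ucp1* female had 0 to 131.1 TPM (median 2.60). Their means were 6.296 ± 2.301 (SD, n = 14) and 1.9996 ± 1.91 (SD, n = 13), a difference of 4.30 (two-sided permutation test, p = 0.0001).

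The *Ucp1* levels of the female and the male of a strain were correlated. Of 58 strains with both sexes, 9 were high in both and 7 low in both, 1 was low in females and high in males (AXB19b/PgnJ), and none was high in females and low in males. Over the 58 strains log2(TPM + 1) of *Ucp1* in the 2 sexes had a Pearson r of 0.59 and a Spearman rho of 0.59 (permutation p = 1e-05 for each, the smallest that 100000 resamples can give, and 1e-05 after adjustment over the 2), and r was 0.58 without BXD14/TyJ and MA/MyJ, the strains farthest from the median. Within the 26 BXD strains r was 0.74, and within 19 other inbred strains 0.44.

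**Figure D5:**
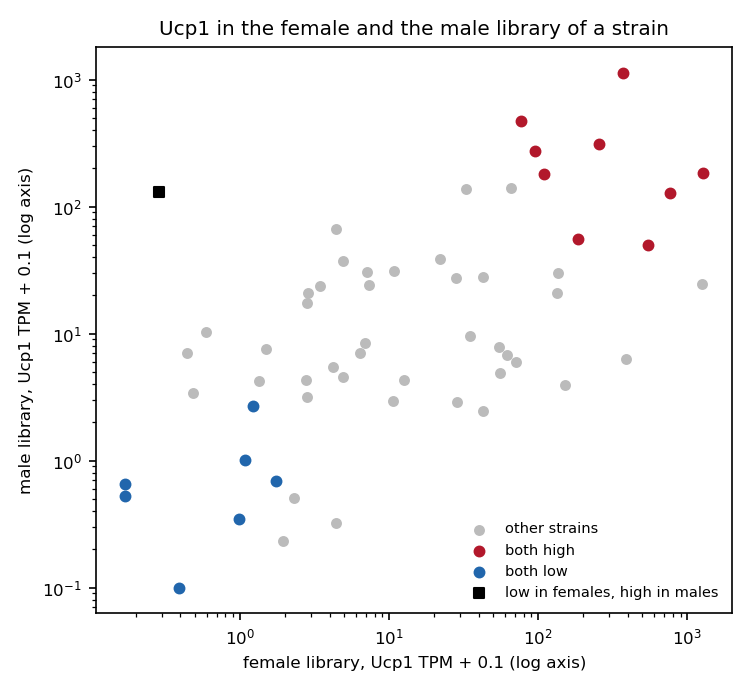
*Ucp1* in the male library against the female library of each of 58 strains, both as TPM + 0.1 on log axes, with strains high in both sexes in red, low in both in blue, and the strain low in females and high in males as a black square. The 9 red and 7 blue strains lie at opposite ends of a broad rising band (Pearson r = 0.59 on log2(TPM + 1)), and AXB19b/PgnJ lies apart at the upper left.

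Across all genes the strain mates gave few calls. In females of strains chosen by the male, 1 of 16809 genes was called (0.00595%), *Cetn4*, a centrin, which was lower (log2FC -1.15, adjusted p = 0.0023), and 812 genes were higher and 632 lower at an unadjusted p under 0.05. In males of strains chosen by the female, 1 of 16008 was called (0.00625%), *Hmga1b*, a copy of the chromatin gene *Hmga1* whose reads may be split with it (log2FC 5.64, adjusted p = 0.020), with 1342 genes higher and 550 lower at an unadjusted p under 0.05. No gene was called in both by edgeR. The tool mattered, since DESeq2 called 0.455% of genes in the females and 0.890% in the males and limma-voom 0.0119% and 0.

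The thermogenic effectors kept their direction in these libraries without passing edgeR's adjusted threshold. In the females all 21 tested had a log2FC above 0 (median 1.49), 16 of them at an unadjusted p under 0.05, and DESeq2 called 10. In the males all 22 were above 0 (median 1.15), 17 at an unadjusted p under 0.05, and DESeq2 called 11. Limma-voom called 0 effectors in either. *Cidea* had 2.53 ± 0.69 in the females (adjusted p = 0.16) and 2.17 ± 0.45 in the males (adjusted p = 0.067), and *Cpt1b* 2.24 ± 0.59 (adjusted p = 0.15) and 2.03 ± 0.41 (adjusted p = 0.066). All 37 complex I genes were also above 0 in both (medians 0.25 and 0.37), with 1 and 31 at an unadjusted p under 0.05. Other lists did not hold in the females. Lipid synthesis had 12 of 21 genes above 0 in the females (median 0.0041) and 19 of 21 in the males (0.24). Glucose use had 9 of 19 above 0 in the females (median -0.017) and 14 of 19 in the males (0.13). Since many mate libraries also stood in the high against low comparison, the mates are not a separate set of mice.

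Genes around *Ucp1* on chromosome 8 were looked at for a shared difference. Of 93 genes that start within 2 Mb of it, 64 were tested, 7 were higher and 1 lower, against 7.75% and 4.25% of all genes. The nearest tested gene, *Elmod2*, starts 0.0223 Mb away and had a log2FC of 0.19 ± 0.080 (adjusted p = 0.11), and -0.10 with limma on log2(TPM + 1). The called neighbours included *Prkaca*, *Ndufb7* (0.38), *Tecr*, *Gipc1*, *Gadd45gip1* and *Asna1*, which were higher, and *Man2b1* (-0.32), which was lower. *Prkaca* and *Ndufb7* are also members of the adrenergic and complex I lists.

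In the promoters of the groups, AGGTCA was in 15.7% of 1258 windows of genes called higher, in 22.7% of 22 effector windows and in 22.2% of 72 windows of nuclear respiratory genes, against 16.3% of all. The NRF1 site was in 2.86%, 0 and 6.94% of these, against 0.971% of all. TGACGTCA was in 3.82%, 4.55% and 5.56%, against 1.79% of all. TNAAGGTCA was in 0.715%, 0 and 4.17%, against 1.28% of all. RefSeq windows were found for 19 of the 24 effectors and 67 of the 83 nuclear respiratory genes. These shares are descriptions of letters, without a test.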

How the data were processed

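RNA was sequenced from iWAT of 67 female and 74 male mice as stranded 100 bp paired-end libraries. The authors quantified transcripts with kallisto 0.46.1 (version per the submitters' processing notes) with transcripts of Ensembl release 97 (GRCm38) as the reference, and used tximport to sum them per gene without normalization between libraries. The deposited estimated counts and the deposited TPM values, which have the same sum in every library and carry no depth, cover 36558 genes. Of these identifiers 35856 were named through GENCODE M21. Kallisto divides reads between matching transcripts, so 30.3% of the estimated counts were not whole and values of near-identical copies are uncertain.

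Libraries were ranked by TPM of *Ucp1* within sex. The libraries, gene lists and tests were chosen with earlier results of these data known. Estimated counts were rounded, filtered with filterByExpr, scaled by TMM and tested by quasi-likelihood in edgeR 4.0.16 (R 4.3.3), in the model ~ sex + *Ucp1* group, with *Ucp1* left out of the tests. P-values were adjusted over all genes tested after Benjamini and Hochberg, and 0.05 was the threshold for a call. The study's term for strain could not be fixed in this model, because *Ucp1* group varies mostly between strains, and strain was used as a random block in limma-voom instead (correlation 0.31 within strains). CPM is scaled by TMM, and CPM sums over lists add such values. The SE of a log2FC was derived from the F statistic. *Ucp1* in strain mates was tested by permutation of group labels with 100000 resamples. Of these steps only the edgeR fit was run on simulated counts, with the groups set in advance. The ranking by *Ucp1*, the strains shared between libraries and the strain-mate comparisons were not covered by it. Floors cover counting error only.

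Genes named are those of the thermogenic, brown, beige, adrenergic and futile cycle lists, the 12 largest and 12 smallest called log2FC of genes whose mean was 1 CPM or more, the 2 members with the lowest p of every other list in each direction, the 8 genes most correlated with *Ucp1*, genes called in the strain-mate and interaction tests and called genes within 2 Mb of *Ucp1*. A few genes that this rule names are not reported here. *Cpt1a*, *Hadhb*, *Lep*, *Mest*, *Elmod2*, *Itih2*, *Gm8399*, *Rad50*, *Cfb* and *Abat* were chosen after their values were seen, as were the comparison of the middle groups, the sums of milk and liver protein genes and 5 alternatives that leave out libraries. DESeq2 1.42.0, limma 3.58.1 on voom weights and on log2(TPM + 1) or log2(TPM + 0.1), other scalings, filters, covariates and rankings were alternatives. Sums, permutations and plots were made in Python 3.11.15 (scipy 1.17.1, pandas 2.3.3, numpy 2.4.6, matplotlib 3.10.9).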

Additional observations from a re-analysis of the deposited data

Results flagged for a closer look

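In 4 genes the difference between high-*Ucp1* and low-*Ucp1* libraries differed between the sexes at an adjusted p under 0.05 by the interaction term of edgeR's quasi-likelihood test, where limma-voom called 0, DESeq2 26 and edgeR with library totals 13. The values are the log2FC of males minus that of females.

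*Gm13456*, a processed pseudogene, had a difference of 5.97 ± 1.04 (adjusted p = 0.0044), from -2.64 in females and 3.34 in males. Its medians in the 4 groups lay between 0.571 and 0.624 CPM, and its highest values were 54.1 CPM in a low-*Ucp1* female and 53.1 CPM in a high-*Ucp1* male library. *AC133509.1*, also a processed pseudogene, had 5.99 ± 1.10 (adjusted p = 0.0047), from -2.83 in females and 3.196 in males, with medians between 0.464 and 0.689 CPM and highest values of 73.1 CPM in a low-*Ucp1* female and 68.9 CPM in a high-*Ucp1* male library. *Cd5l*, a secreted protein of macrophages, had 5.31 ± 0.96 (adjusted p = 0.0047), from -3.45 in females and 1.88 in males. Its median was 0.339 CPM in high-*Ucp1* and 1.15 CPM in low-*Ucp1* females, with single libraries of up to 51.97 CPM. *Lalba*, the milk protein α-lactalbumin, had -4.23 ± 0.87 (adjusted p = 0.034). It was 0.215 to 101.4 CPM (median 2.76) in high-*Ucp1* females and 0.0761 to 1.92 CPM (median 0.317) in low-*Ucp1* females, and at most 1.99 CPM in any male library of either group.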

How the results depend on the processing

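The 2115 genes called, 1366 of them higher, became 8899 with limma on log2(TPM + 1) (397 higher), 9072 on log2(TPM + 0.1) (393 higher), 1373 with strain as a replicate block (885 higher), 1219 without the 4 highest libraries of each sex (845 higher), 1304 in females (866 higher) and 331 in males (225 higher). They numbered 1354 with 1 library per strain, 3299 and 3623 with the adipocyte or B lymphocyte score in the model and 1351 for a split at the median. The 749 genes lower became 1843 with library totals, 312 with 1 library per strain, 443 with strain family, 1256 and 1877 with the adipocyte or B lymphocyte score, 383 for a split at the median, 1374 for the slope on *Ucp1* and 1427 with the 3 unranked mice included. In males alone 11 nuclear respiratory genes, 9 of fatty acid oxidation, 11 of the citrate cycle, 5 of mtDNA, 7 of the mitochondrial ribosome and 4 of lipogenesis were higher. Mitochondrial ribosome genes numbered 5 on either TPM scale and 31 for a split at the median. Skeletal muscle genes lower numbered 4 with limma-voom, 2 under a filter of 10 counts in each library, 3 with the strain block, 8 with family, 1 with the muscle score and 3 in females. The 8 genes called near *Ucp1* became 24 on either TPM scale, 5 with the strain block, 1 library per strain, the muscle score or groups of 1 in 3 libraries, 14 with the adipocyte or B lymphocyte score, 13 for the slope, 2 in females and 1 for a split at the median, in males and without the 4 highest libraries. The interaction called 26 genes with DESeq2, 0 with limma-voom and 13 with library totals. The percent of genes called in strain mates was 0.455 (DESeq2), 0.0119 (limma-voom), 0.0416 (library totals), 0.507 (no filter) and 0.427 (groups of 1 in 3 libraries) in females and 0.890, 0, 0.00625, 0.171 and 0.279 in males. *Ucp1* in the mates differed by 3.96 to 4.93 in females and 3.65 to 5.13 in males, and r was 0.59 to 0.60, over the alternatives run.

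Among single genes, signs turned on log2(TPM + 1) and log2(TPM + 0.1) for *Fgf21* (-0.038 and -0.19), *Gabpa* (-0.11 on both), *Tfam* (-0.19 on both), *Prdm16* (-0.044 and -0.062), *Slc25a5* (-0.0031 and -0.0032) and *Elmod2* (-0.10 and -0.11). With the muscle score in the model *Atp2a1* had 0.38, *Myh4* 1.30, *Actn3* 0.47 and *Ckm* 0.63 (called), as a covariate made of these genes can do. *Fgf21* had -0.14 with the B lymphocyte score, *Krt18* -0.15 with the mammary score and *Ttr* 0.27 for a split at the median. *Zic1* had 0.14 with family, 0.0025 and 0.0014 with the muscle and adipocyte scores, 0.010 in females, 0.029 without the 3 females high in milk proteins and 0.021 without the shallowest libraries. Over all named genes and alternatives 2606 values kept direction and call, 286 lost the call, 8 gained it and 25 turned. The cause of these changes was not tested. No replicate of a group could be left out by number, since the labels give 1 library per sex and strain. The depth of 11747373 counts in the shallowest library limits what can be said of *Ucp1* near 0.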

Other observations

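Genes among those that fell most closely with *Ucp1* over all ranked libraries were chosen after their values were seen. By Spearman correlation they were *Rad50* (-0.54), a subunit of the complex that joins DNA breaks, *Cfb* (-0.54), complement factor B, and *Abat* (-0.53), GABA transaminase. *Abat* had medians of 8.81 against 30.1 CPM (-1.53 ± 0.20), *Cfb* 177 against 333 CPM (-0.92 ± 0.13) and *Rad50* 45.01 against 67.2 CPM (-0.49 ± 0.071). In the strain mates all 3 were below 0 in both sexes, from -0.19 for *Rad50* to -0.46 for *Abat* in females and from -0.36 for *Rad50* to -0.68 for *Cfb* in males, none called.

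The libraries left out of the ranking had 0.183 TPM (BXD34/TyJ, labelled female), 5.42 TPM (BXD69/RwwJ, labelled female) and 315 TPM (NZW/LacJ, labelled male) of *Ucp1*. *Hmga1b*, called in the male strain mates, also had medians of 17.05 against 0.507 CPM between high-*Ucp1* and low-*Ucp1* libraries (log2FC 2.62 ± 0.68), with 0 to 77.4 CPM and 0 to 41.4 CPM and medians of 21.2 and 0.493 CPM in the upper and lower middle groups.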
